A study of Mus musculus with 170 samples.

Results

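The genes described here are the 6 chains of the cardiac sarcomeric myosins, Myh6, Myh7, Myl2, Myl3, Myl4 and Myl7, taken by name from a table of 40549 genes. All 6 had a row, and all 6 were above 0 in more than 10 of the cardiomyocyte-like cells, the filter used for every gene. Transcripts were measured by Smart-seq2, which amplifies full-length cDNA primed on poly(A), in single cells of the ventricular part of C57BL/6 mouse hearts at E9.5. The table held 143 cells, 74 of control and 69 of Dgcr8 cKO hearts, in 2 sequencing batches. Both groups were homozygous for floxed Dgcr8 (loxP/loxP) and were heterozygous for the Rosa26 mT/mG reporter, as the study's methods describe. Control embryos, labelled wild type, had no Cre, and cKO embryos, labelled Mesp1Cre/+; Dgcr8-/-, had in addition Mesp1 Cre/+. Cre from the Mesp1 locus acts in mesoderm progenitors of the heart and vessels and deletes the floxed gene in their descendants. Dgcr8 encodes the protein that recognises primary microRNA hairpins and works with the nuclease Drosha to cut them out. Cells without recombination were removed from the cKO by the study's reporter filter.

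Cardiac myosin is built from heavy chains, which hold the motor, and from light chains that wrap the neck of each motor. Each heavy chain binds a regulatory light chain, Myl7 in atrial and Myl2 in ventricular muscle, and an essential light chain, Myl4 in atrial and Myl3 in ventricular muscle. Myh6 encodes the fast alpha heavy chain and Myh7 the slow beta heavy chain. In the mouse heart tube the atrial light chains are made in the ventricle too, and their retreat to the atria belongs to later chamber maturation. The comparison asks what these chains did in single cardiomyocytes (CMs) of hearts in which a gene for microRNA hairpin processing was targeted. Loss of microRNAs was not measured in these cells.

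On the mouse build GRCm38, Myh6 (ENSMUSG00000040752) lies at chr14:54941921-54966927 and Myh7 (ENSMUSG00000053093) at chr14:54970684-54994626, both on the minus strand with 3756 bases between them. Myl2 (ENSMUSG00000013936) is at chr5:122100951-122113472, Myl3 (ENSMUSG00000059741) at chr9:110741861-110769798 and Myl4 (ENSMUSG00000061086) at chr11:104550663-104595753, all on the plus strand. Myl7 (ENSMUSG00000020469) is at chr11:5896637-5898782 on the minus strand. Introns of 3 striated heavy chain genes hold microRNAs, which are shown because their hairpins are of the kind the deleted gene helps to cut. In the GENCODE transcripts with the most exons, miR-208a-3p lies in intron 29 of Myh6 (chr14:54949072-54949093), miR-208b-3p in intron 31 of Myh7 (chr14:54975710-54975731) and miR-499-5p in intron 19 of Myh7b (chr2:155622893-155622913), each on its host's strand. The mature RNAs are given from RefSeq on GRCm38.p6, 5′ to 3′, with the seed (bases 2 to 8) in capitals.
mmu-miR-208a-3p: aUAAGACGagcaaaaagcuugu
mmu-miR-208b-3p: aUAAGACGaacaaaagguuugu
mmu-miR-499-5p: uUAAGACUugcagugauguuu
The seed UAAGACG was shared by both miR-208 RNAs, and the seed of miR-499-5p was UAAGACU. Poly(A)-primed libraries do not measure mature microRNAs. The rows of Mir208a and Mir499 were listed at 0 in all 97 cardiomyocyte-like cells, and Mir208b was above 0 in 1 of them, a cKO cell.

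Promoter windows are shown for Myl3 and Myl7, one chain of each chamber set, because the levels of their transcripts moved apart between the genotypes. Each window covers bases 250 to 33 before the RefSeq start on GRCm38.p6, written along the gene's strand. Capitals mark matches on either strand to an E-box (CANNTG), a GATA motif (GATAA), a TEAD motif (CATTCC) or a CArG box.
Myl3, chr9:110763428-110763645, plus strand: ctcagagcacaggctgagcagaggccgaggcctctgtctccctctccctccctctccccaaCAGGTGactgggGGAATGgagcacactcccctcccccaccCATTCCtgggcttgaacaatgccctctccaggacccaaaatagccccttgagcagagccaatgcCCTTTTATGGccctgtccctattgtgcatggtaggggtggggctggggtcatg
Myl7, chr11:5898815-5899032, minus strand: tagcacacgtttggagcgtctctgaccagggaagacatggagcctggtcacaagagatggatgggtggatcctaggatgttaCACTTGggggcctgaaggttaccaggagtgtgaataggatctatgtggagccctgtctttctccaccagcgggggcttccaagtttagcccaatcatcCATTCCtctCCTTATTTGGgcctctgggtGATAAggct
Both windows held 1 CArG box, the element bound by serum response factor, which 1.29% of 32851 windows of the same length held. The TEAD letters occurred at 2 places in the Myl3 window and 1 in the Myl7 window, against 11.4% of all windows with a match. An E-box was found once in each and in 61.9% of all windows, and the GATA letters were found in the Myl7 window and in 20.4% of all windows. T-box (AGGTGT), COUP-TF (AGGTCA) and MEF2 motifs had no match in either window, and 10.6%, 12.4% and 1.44% of all windows held them. No marked match overlapped another. Letters in a window describe sequence and do not show binding.

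Cells were classed from 54 marker genes that left out the 6 chains, so the levels below played no part in the choice of cells. All 15 cardiomyocyte markers, among them Tnnt2, Actc1 and Nkx2-5, were higher in a cluster of 97 cells, called CM-like, which held 29 control cells (19 of batch 1 and 10 of batch 2) and 68 cKO cells (34 of each batch). The median CM-like cell had 8458 and 9679 detected genes in control batches 1 and 2, and 9798 and 7765 in the cKO batches. The values are TPM, a level per transcript length and per total of the cell, so the read depth behind each value is unknown. The labels name no embryo, so each genotype is 1 sample, no test between genotypes was possible, and each SD below is the scatter across cells. Xist averaged 0.08 in control and 4.56 in cKO CM-like cells on the log2(TPM + 1) scale and the Y-linked Ddx3y 2.99 and 0.07, so genotype and sex cannot be told apart. Dgcr8 itself averaged 2.61 ± 2.91 (SD) in control and 1.64 ± 2.45 in cKO CM-like cells, with cells at 0 in both, and is a weak check of the labels at the level of a gene's total.

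The ventricular light chains were lower in Dgcr8 cKO CMs, and the atrial light chains were not. The difference of cKO minus control cells in mean log2(TPM + 1) was -3.52 for Myl2 and -2.41 for Myl3, and negative in both batches. Myl7 was 0.67 and Myl4 0.22 above control. The heavy chains Myh6 and Myh7 differed by 0.22 and 0.36, and Myh6 had opposite signs in the batches. A gene was called where the pooled difference and both batch differences reached 1 log2 unit in the same direction. Of the 6 chains, 2 were called lower, Myl2 and Myl3, and 0 were called higher. Among all 15161 genes that passed the filter, 458 (3.02%) were called lower and 367 (2.42%) higher. Ordered from the most negative pooled difference, Myl2 stood at place 3 and Myl3 at place 61 of the 15161 genes. The median difference of all genes was 0.02, with 0.14 in batch 1 and -0.22 in batch 2. The choice of cells moved some sizes by over 1.5 times. With 4 clusters in place of 5, Myl3 differed by -1.496, Myl7 by 1.37, Myl4 by 1.05, Myh7 by 1.23 and Myh6 by 1.01, while Myl2 differed by -2.68.

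**Figure D1:**
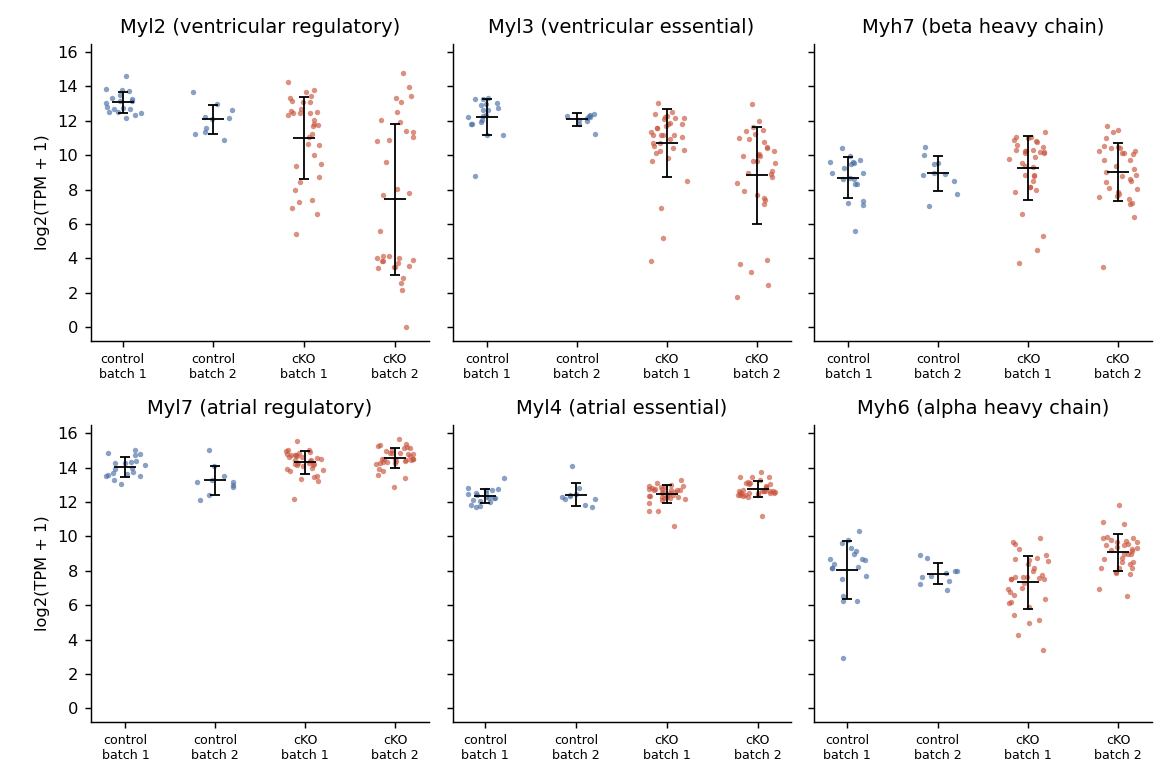
Level of each chain in CM-like cells, log2(TPM + 1), by genotype and sequencing batch (control 19 and 10 cells, cKO 34 and 34 cells). Each point is a cell, and the bars give the mean and SD across cells. Myl2 spread downward in the cKO to a cell at 0, while Myl7 and Myl4 stayed within narrow bands in all 4 groups.

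Myl2, the ventricular regulatory light chain, was at 1894 to 25064 TPM in the 29 control cells, with a median of 6712 TPM. In the 68 cKO cells it ran from 0 to 28061 TPM, with a median of 1695 TPM. No control cell was below 1000 TPM, whereas 31 of 68 cKO cells were. The groups overlapped, since 32 cKO cells lay within or above the control range and 36 cells (52.9%, exact 95% CI 40.4 to 65.2, counting error only) lay below its lowest cell. On the log scale the means were 12.73 ± 0.85 (SD) in control and 9.21 ± 3.93 in cKO cells. The difference was -2.08 in batch 1 and -4.65 in batch 2, and it was -3.599 among cells with at least 6000 detected genes.

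The spread of Myl2 across cKO cells was wider than across control cells and differed between the batches. In cKO batch 1, Myl2 ranged from 41.04 to 19521 TPM with a median of 3526 TPM. In cKO batch 2 it was 0 in 1 cell and between 3.52 and 28061 TPM in the others, with a median of 126 TPM. In that batch 17 of 34 cells, counting the cell at 0, had at most 46.6 TPM, and none lay between that value and 205.8 TPM. The other 17 cells lay above the gap. This gap was picked from the values, as the widest on the log2 scale among the cells above 0. With the cell at 0 included, the widest gap was that from 0 to 3.52 TPM. Cells of cKO batch 1 fell inside the picked gap, among them cells at 121.8 and 154.8 TPM, so it was not shared by the batches. Whether the cells form separate groups was not tested. Cells with high Myl2 weighed on the arithmetic mean. The log2 ratio of the mean TPM of all cKO cells over that of control cells was -1.05, a smaller difference than that of the log values.

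Myl3, the ventricular essential light chain, was at 442 to 10365 TPM in control cells with a median of 4886 TPM. In cKO cells it was at 2.40 to 8354 TPM with a median of 1385 TPM. The groups overlapped, with 16 of 68 cKO cells (23.5%, CI 14.1 to 35.4) below the lowest control cell. That control cell, of batch 1, had 41.1% mitochondrial TPM. Among cells with under 20% mitochondrial TPM, a limit applied to this count after the values were seen, the lowest of 27 control cells had 2318 TPM and 45 of 67 cKO cells lay below it, against 36 of 67 for Myl2. The log means were 12.18 ± 0.87 in control and 9.77 ± 2.61 in cKO cells, a difference of -1.51 in batch 1 and -3.25 in batch 2. In batch 2, whose control cells kept to 2391 to 5455 TPM, 29 of 34 cKO cells lay below all 10 control cells.

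The low levels of both ventricular light chains fell partly in different cells. With 100 TPM as the limit, set after the values were seen, 6 cKO cells were low in both, 13 in Myl2 alone, 1 in Myl3 alone, and 48 in neither. Of the 13 cells low in Myl2 alone, all 13 were of batch 2. No control cell was below 100 TPM for either gene, and a count of 0 of 29 has an exact 95% interval up to 11.9%.

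Myl7, the atrial regulatory light chain, was the most abundant of the 6 chains in both genotypes. It was at 4391 to 33169 TPM in control cells with a median of 13079 TPM, and at 4613 to 52688 TPM in cKO cells with a median of 22851 TPM. The log means were 13.76 ± 0.75 and 14.43 ± 0.63, a difference of 0.27 in batch 1 and 1.30 in batch 2. No cKO cell was below the lowest control cell, 9 of 68 lay above the highest, and the rest overlapped. Myl7 was not called, since its pooled difference and that of batch 1 were below 1 log2 unit.

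Myl4, the atrial essential light chain, had the smallest SD of the log values in each genotype over both batches, although in control batch 2 the SD of 0.66 was above that of Myl3 (0.35) and Myh6 (0.63). Its range was 3336 to 17342 TPM in control cells (median 5093 TPM) and 1586 to 13604 TPM in cKO cells (median 6337 TPM). The log means of 12.38 ± 0.50 and 12.60 ± 0.50 differed by less than 1 SD of the cells, with 0.10 in batch 1 and 0.32 in batch 2. No cKO cell lay above the control range, and 4 lay below it.

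Myh7, the beta heavy chain, was at 47.4 to 1418 TPM in control cells (median 489 TPM) and at 10.1 to 3345 TPM in cKO cells (median 792 TPM). The log means were 8.78 ± 1.12 and 9.15 ± 1.78, and the difference of 0.36 was 0.56 in batch 1 and 0.09 in batch 2. The cKO cells exceeded the control range at both ends, with 15 cells above it and 4 below. Myh6, the alpha heavy chain, was at 6.44 to 1260 TPM in control cells (median 280 TPM) and at 9.56 to 3647 TPM in cKO cells (median 348 TPM). Its log means were 7.98 ± 1.40 and 8.21 ± 1.58. The difference of Myh6 was -0.72 in batch 1 and 1.23 in batch 2, so the pooled difference of 0.22 held in neither. The 2 heavy chains are near-identical neighbours, and reads shared between them could be assigned to either. Mhrt, an antisense RNA that overlaps 3666 bases of Myh7, averaged 1.01 ± 1.61 in control and 2.14 ± 2.58 in cKO cells, and the protocol keeps no strand, so its reads and those of Myh7 cannot be told apart there.

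By median TPM, the control order was Myl7, Myl2, Myl4, Myl3, Myh7 and Myh6. Of these neighbours, the difference of log means was larger than either chain's SD across cells for Myl7 over Myl2 and for Myl3 over Myh7, and smaller than the larger SD for the others. In the pooled cKO cells the order was Myl7, Myl4, Myl2, Myl3, Myh7 and Myh6, and Myl7 over Myl4 was the one step larger than the SDs. This order was that of cKO batch 1. In cKO batch 2 Myl2, at a median of 126 TPM, came last, after Myl3 at 811 TPM, Myh6 at 569 TPM and Myh7 at 559 TPM, and by pooled log means Myl3 stood above Myl2. The 6 chains together made up 3.57% ± 1.46 of a cell's TPM in control and 3.78% ± 1.23 in cKO cells. This share was 3.97% in control and 3.66% in cKO cells of batch 1, and 2.82% and 3.90% in batch 2, so its difference had opposite signs in the batches and stayed below 1 SD of the cells in each.

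Atrial against ventricular chains were then compared within each cell, which removes the scaling to the total of the cell. The log2 ratio of Myl7 over Myl2 was 0.19 to 4.13 in control cells, with a median of 0.93, and -0.27 to 14.99 in cKO cells, with a median of 4.07. The highest cKO value came from a cell with Myl2 at 0, so the 1 TPM added to each level sets its size. The means were 1.03 ± 0.80 and 5.22 ± 4.13, which is 0.95 and 3.31 in batch 1 and 1.18 and 7.13 in batch 2. Myl7 exceeded Myl2 in 29 of 29 control cells and in 65 of 68 cKO cells, so the order of this pair was already atrial in control cells. A 16-fold excess was found in 1 of the 29 control cells (3.45%, CI 0.0873 to 17.8). It was found in 35 of the 68 cKO cells (51.5%, CI 39.03 to 63.8). In 33 cKO cells the ratio was above that of every control cell.

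The ratio of Myl4 over Myl3 moved in the same direction from a balanced start. It was -0.82 to 3.23 in control cells with a median of 0.13, and -0.46 to 11.35 in cKO cells with a median of 2.21. The highest cKO value came from a cell with Myl3 at 2.40 TPM. The means were 0.21 ± 0.81 and 2.83 ± 2.71, which is 0.13 and 1.75 in batch 1 and 0.35 and 3.92 in batch 2. Myl4 exceeded Myl3 in 17 of the 29 control cells (58.6%, CI 38.9 to 76.5). The count among cKO cells was 65 of 68 (95.6%, CI 87.6 to 99.1). Within batch 1 the counts were 9 of 19 and 32 of 34, and within batch 2 they were 8 of 10 and 33 of 34, so the shares were closest in batch 2.

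The heavy chain ratio did not follow the light chains in both batches. Myh6 over Myh7 averaged -0.80 ± 1.47 in control and -0.94 ± 2.39 in cKO cells. It was -0.63 in control and -1.92 in cKO cells of batch 1, and -1.11 and 0.04 in batch 2. Myh6 exceeded Myh7 in 9 of the 29 control cells (31.03%, CI 15.3 to 50.8). The cKO count was 24 of 68 cells (35.3%, CI 24.1 to 47.8). By batch the cKO counts were 6 of 34 and 18 of 34.

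**Figure D2:**
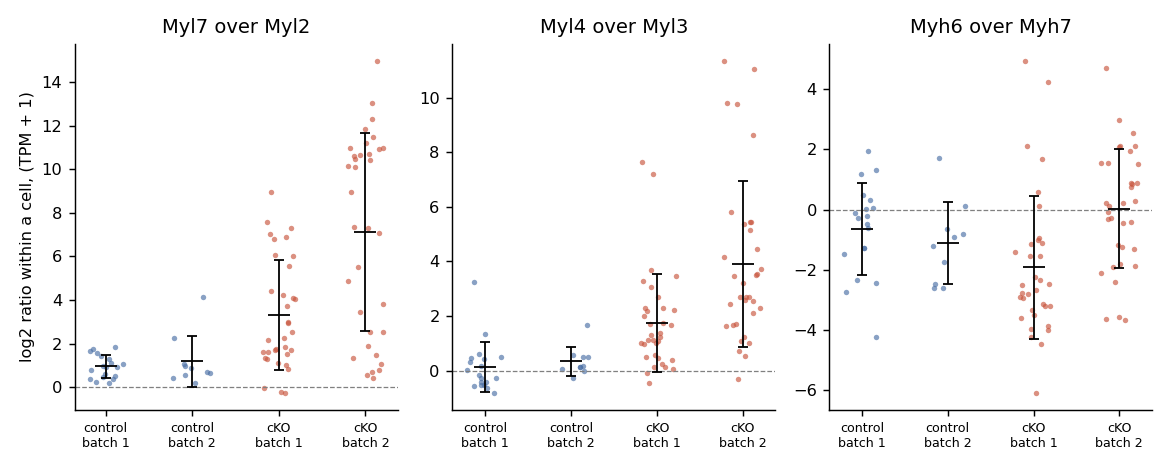
Atrial over ventricular light chain ratios and the alpha over beta heavy chain ratio within single CM-like cells, as log2 of (TPM + 1) over (TPM + 1), by genotype and batch. Points are cells, bars are the mean and SD, and the dashed line marks equal levels. Both light chain ratios averaged higher in the cKO of both batches (5.22 against 1.03 and 2.83 against 0.21 in all), and the heavy chain ratio went down in batch 1 and up in batch 2.

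The sums of each pair moved less than the ratios, which arithmetic in part fixes. The atrial chain stays in a sum, so loss of the ventricular chain can lower it only so far, while a ratio has no such bound. Whether 1 chain of a pair made up for the other was not tested. Myl7 and Myl2 together averaged 14.38 ± 0.70 on the log2 scale in control and 14.67 ± 0.55 in cKO cells, with a difference of -0.04 in batch 1 and 0.86 in batch 2. Myl4 and Myl3 together averaged 13.33 ± 0.53 and 12.98 ± 0.52, with differences of -0.39 and -0.30 in the batches. Per cell, Myl7 made up 65.97% ± 9.64 of the regulatory pair in control and 86.6% ± 15.6 in cKO cells. Myl4 made up 52.9% ± 11.8 of the essential pair in control and 78.8% ± 16.04 in cKO cells. Regulatory over essential light chain transcripts stood at a log2 ratio of 1.04 ± 0.56 in control and 1.69 ± 0.54 in cKO cells, with differences of 0.35 and 1.16 in the batches. Essential light chains over heavy chains were lower in the cKO, at 2.85 ± 0.90 against 3.74 ± 0.85, with -0.74 and -1.01 in the batches.

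Across single cells, the chains of the cKO moved together in part. These correlations describe cells that share libraries and TPM totals, over 34 cells in each cKO batch and 19 and 10 control cells. Myl2 and Myl3 had a Spearman rho of 0.75 in cKO batch 1 and 0.34 in cKO batch 2, and of 0.48 and -0.10 in the control batches. Myl2 and Myh7 had 0.64 in both cKO batches, against 0.40 and -0.12 in control. Myl2 and Myl7, the alternative regulatory chains, had -0.03 and -0.19 in the cKO, against 0.59 and 0.08 in the control batches. The ratios of Myl7 over Myl2 and of Myl4 over Myl3 had 0.64 and 0.36 in the cKO batches, against -0.25 and -0.31 in control. Myl7 over Myl2 and Myh6 over Myh7 had 0.49 and 0.68 in the cKO, although the pooled heavy chain ratio hardly differed between genotypes. The control batches had 0.00 and 0.53 for this pair, so control batch 2 was as high as cKO batch 1.

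**Figure D3:**
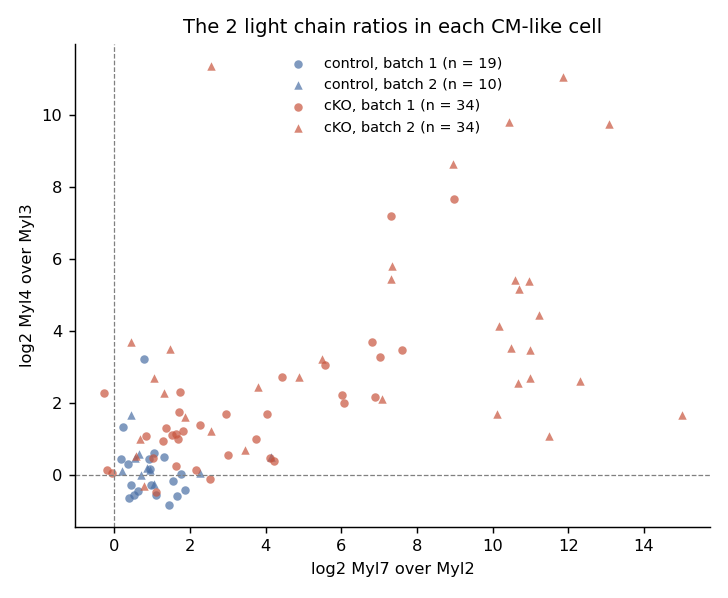
The log2 ratio of Myl7 over Myl2 (x axis) against that of Myl4 over Myl3 (y axis) in each CM-like cell, coloured by genotype, with circles for batch 1 and triangles for batch 2. Control cells gather near the origin, with all 29 above 0 on the x axis and 17 above 0 on the y axis, and cKO cells spread to 14.99 on the x axis and 11.35 on the y axis. The cell at 14.99 had Myl2 at 0, so the 1 TPM added to each level sets its size, and the cell at 11.35 had Myl3 at 2.40 TPM.

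Genes outside the family whose levels ran most like each chain were found as the highest mean rho over the 4 groups of genotype and batch, among 5741 genes that reached a TPM of 1 in the majority of CM-like cells. For Myl7 these were Tnnc1 (0.65), the cardiac troponin C gene, Fbn2 (0.60) and Tnni3 (0.49). For Myl4 they were Tnnc1 (0.46), Aes (0.45) and Tnnt2 (0.44). For Myl2 they included Trdn (0.51), encoding the calcium release protein triadin, and Rpl23 (0.46), and for Myl3 they were Npc2 (0.50), Tnnc1 (0.47) and Gbas (0.46). The mean for Myl3 and Tnnc1 came from 0.80 and 0.81 in the control batches and 0.24 and 0.05 in the cKO batches. For Myh7 they were Ndufb7 (0.53), Tnnt2 (0.53) and Trdn (0.47), and for Myh6 Anxa6 (0.54), Itga6 (0.49) and Thoc2 (0.45). The ratio of Myl7 over Myl2 ran most like Dpysl2 (0.62), Wdr33, Tgfb2, Atp6v0c and Arf4, and most opposite to Ap3d1 (-0.44), Dek, Rpl22, Wbp4 and Rpl23. For Ap3d1 the control batches had -0.64 and -0.89 and the cKO batches -0.09 and -0.13, so its place rested on the control cells. All genes named here are extremes among 5741 values over few cells, so the size of rho is in part due to selection. Whether any of them exceeds what unlinked genes would give was not tested.

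Genes of chamber identity other than myosins gave a mixed picture. Over all genes 3.02% were called lower and 2.42% higher, so the counts in lists this short, here and below, say little. Of 7 tested ventricular genes, 1 was called lower and 0 higher, with a median difference of -0.41 (0.09 in batch 1 and -1.14 in batch 2) beside 0.02 over all genes. The pooled median was the value of Irx3, which reached a TPM of 1 in 5 control and 5 cKO cells. That of batch 1 was the value of Irx1, which did so in 1 and 4 cells, so both rest on genes near the floor. The gene called lower was Hand1, a transcription factor of the outer curvature of the left ventricle, which averaged 4.59 ± 3.44 in control and 1.13 ± 2.16 in cKO cells. Irx4, a ventricular homeobox gene, differed by -1.07 (-0.52 and -1.84 in the batches). Of 6 tested genes of the atrial and venous pole, 1 was called lower, the angiopoietin gene Angpt1 (-2.66), and 0 higher, with a median of 0.98 (0.29 and 1.502). Vsnl1, a calcium sensor of the venous pole, reached a TPM of 1 in 28 of 68 cKO and 0 of 29 control cells, and differed by 0.60 in batch 1 and 3.10 in batch 2. Nr2f2, the atrial COUP-TFII gene, did so in 28 of 68 cKO and 2 of 29 control cells, with differences of 0.49 and 1.73.

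Across single cKO cells, the rho of Myl2 was negative in both batches with 4 of the 6 atrial and venous genes. It was -0.53 in batch 1 and -0.49 in batch 2 with Nr2f2, -0.39 and -0.50 with Vsnl1, -0.17 and -0.44 with Tbx5, and -0.16 and -0.22 with Stard10. The signs differed between the cKO batches for Nr2f1 (0.10 and -0.41) and Angpt1 (-0.28 and 0.04). In the control batches Nr2f2 had 0.10 and -0.60, and Vsnl1 0.35 and -0.06. These control values rank levels near 0, since Nr2f2 reached a TPM of 1 in 2 control cells and Vsnl1 in 0. With Hey2, a repressor of atrial genes in the ventricle, Myl2 had 0.59 and 0.32 in the cKO and -0.19 and 0.29 in control, and with Irx4 0.44 and 0.37, against -0.29 and 0.20. With Hand1, which had the largest difference of these identity genes, the cKO values were -0.02 and 0.07.

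Of 10 other striated myosin chains, 4 were tested and 0 were called, with a median of -0.05. Myl1, an essential light chain of fast skeletal muscle that was high here too, averaged 10.00 ± 1.29 in control and 9.70 ± 2.65 in cKO cells and differed by -1.08 in batch 1 and 0.59 in batch 2. Mylpf, the fast skeletal regulatory chain, differed by -1.77 in the pooled cells, -0.17 in batch 1 and -3.601 in batch 2. Of 8 tested smooth and non-muscle chains, 1 was called higher, with a median of 0.70 (0.63 and 0.43). This was Myl6, the essential light chain of non-muscle and smooth muscle myosin, at 11.29 ± 0.44 in control and 12.50 ± 0.84 in cKO cells and 1.00 and 1.38 higher in the batches.

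No tested partner of myosin was called either way, which for so few genes is near the shares over all genes (3.02% lower and 2.42% higher). Of 6 tested genes of the thick filament and M band, 0 were called, with a median of 0.32, and Mybpc3, the cardiac myosin-binding protein C, differed by 0.50. Of 7 light chain kinases and phosphatases, 0 were called, with a median of 0.21. This median was the value of Mylk4, which reached a TPM of 1 in 0 control and 4 cKO cells. Mylk3, the cardiac kinase of the regulatory light chains, was 0.55 higher, and Ppp1r12a, a targeting subunit of myosin phosphatase, 1.06 higher (1.17 and 0.63 in the batches). Of 9 genes of myosin folding and assembly, 0 were called, and the median of -0.38 was 0.18 in batch 1 and -1.25 in batch 2. Unc45b, the myosin chaperone of striated muscle, differed by 1.31 in batch 1 and -1.30 in batch 2.

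**Figure D4:**
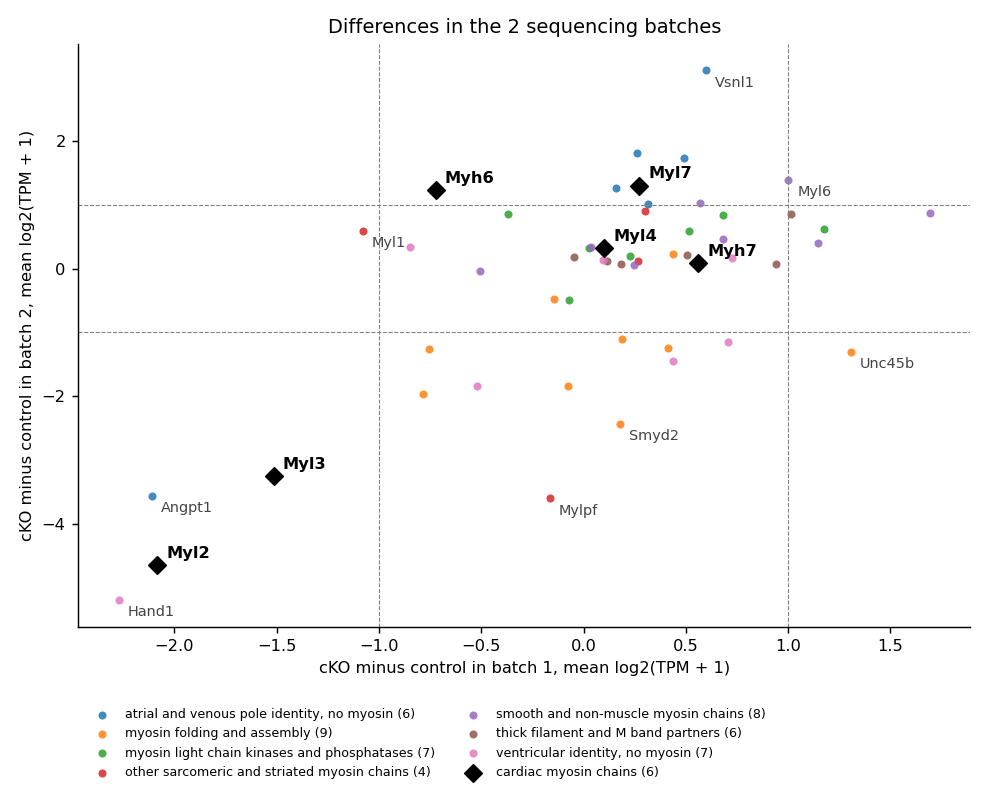
Difference of cKO minus control CM-like cells in mean log2(TPM + 1), batch 1 on the x axis and batch 2 on the y axis, for the 6 chains (diamonds) and the tested genes of 7 lists (circles, number of genes in the key). Dashed lines mark 1 log2 unit, and Myl2 and Myl3 lie beyond it in both batches, near Hand1 and Angpt1.

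Cells of other classes also held cardiac myosin RNA. All of these but 1 cell were of control hearts, so genotypes could not be compared in them. Some carried other cardiomyocyte transcripts, since Tnnt2 and Actc1 both reached 100 TPM in 39 control cells, against 29 called CM-like. Their levels are therefore not a background free of cardiomyocyte RNA. In 22 endothelial-like cells the medians were 86.1 TPM for Myl7, 31.4 TPM for Myl2, 23.1 TPM for Myl4 and 7.09 TPM for Myl3, and the heavy chains Myh7 and Myh6 were at 2.29 and 0.76 TPM. The highest endothelial-like cell had 8089 TPM of Myl7 and 5079 TPM of Myl2, so for both chains the range of these cells overlapped that of CM-like cKO cells. That cell also had 2660 TPM of Myl3 and 2758 TPM of Myl4, beside 1512 TPM of endothelial markers. Whether it was a doublet was not tested. In 13 epicardial-like cells, which also had 7 of 12 mesenchymal markers, Myl7 had a median of 1938 TPM and Myl2 one of 27.8 TPM. Their log2 ratio of Myl7 over Myl2 averaged 4.94 ± 2.77, against 1.34 ± 1.33 in endothelial-like and 1.03 ± 0.80 in control CM-like cells.

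Markers of the other classes were low in the CM-like cells of both genotypes. The 6 epicardial markers summed to a median of 24.4 TPM (0.31 to 533) in control and 33.7 TPM (0 to 454) in cKO CM-like cells. By batch the medians were 4.46 and 57.3 TPM in batch 1 and 32.1 and 29.5 TPM in batch 2, so these markers were higher in the cKO of batch 1 alone. The 14 endothelial markers summed to 8.27 TPM (0.35 to 101) and 6.03 TPM (0 to 154), and the 12 mesenchymal markers to 2.56 TPM (0.04 to 114) and 6.197 TPM (0 to 121). The endothelial medians were 2.76 TPM in control and 5.61 TPM in cKO cells of batch 1, and 29.7 and 7.66 TPM in batch 2. The mesenchymal medians were 1.56 and 3.53 TPM in batch 1, and 11.7 and 8.05 TPM in batch 2. Both sums were thus higher in the cKO in batch 1 and higher in control in batch 2. Erythroid markers exceeded 1000 TPM in 2 control cells of batch 2, and without them Myl2 differed by -3.56 and Myl3 by -2.44. The part of RNA from other cells in the results was not tested. The classes of cells mattered for the pooled table. CM-like cells were 39.2% of control and 98.6% of cKO cells, and over all 143 cells Myl2 was 0.70 and Myl3 2.08 higher in the cKO. The paper reports that control CMs tended to stay clustered while cKO CMs came apart more easily, so more single cKO CMs were picked. These shares therefore do not give the composition of the hearts.

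**Figure D5:**
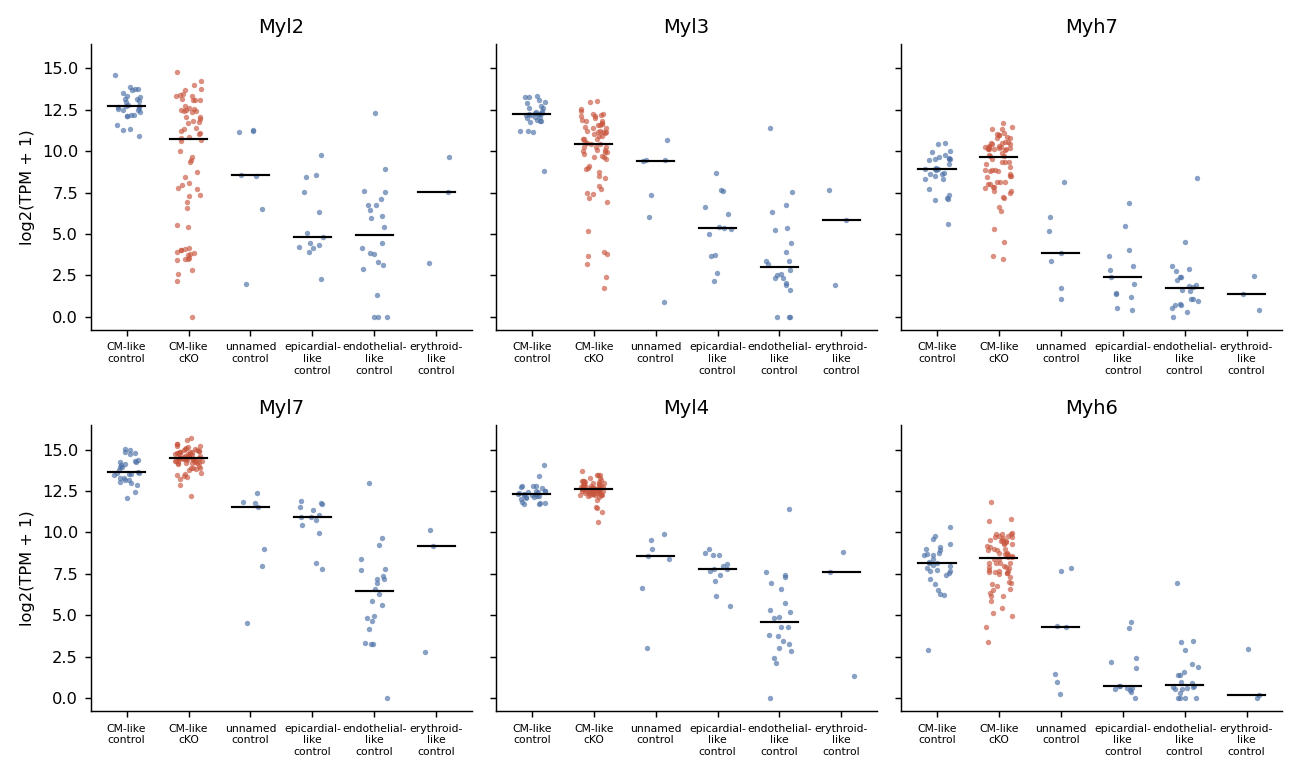
Level of each chain, log2(TPM + 1), by cell class and genotype. Points are cells and lines are medians, and the lone cKO cell of the unnamed cluster is not drawn. The other classes are control cells, and their medians lay below those of control CM-like cells for all 6 chains.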

How the data were processed

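Single cells were sequenced after Smart-seq2 amplification. The deposited values are TPM, which the authors obtained with Salmon on mm10 (version and annotation release not given in the sources used here), keeping cells by mapping rate and reporter. TPM divides by transcript length and cell total, so depth is lost and an abundant transcript lowers all others. No molecular identifiers were used. Cell sums were 996133 to 999999. Of 170 labelled samples, 143 had a column, matched by title, and 27 were not analysed here. The members and lists were chosen with earlier results of these data known.

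Cells were clustered by Ward linkage on z-scored log2(TPM + 1) of 54 markers into 5 clusters. A cluster was named from at least 3 markers that were 1 log2 unit above all other cells. Of the remaining clusters, 22 cells were endothelial-like, 13 epicardial-like, 3 erythroid-like, and 8 (7 control, 1 cKO) were unnamed, with a median of 55.0% mitochondrial TPM. Doublets were not called because cells were picked by hand. Genes above 0 in more than 10 CM-like cells were compared as differences of mean log2(TPM + 1), which understates changes of low genes. No test between genotypes was run. Shares have exact Clopper-Pearson 95% intervals, for counting error only. The genes named were the members, the extremes and called genes of the fixed lists, and the top genes by mean Spearman rho, of which 1 is not reported here. Python 3.11.15, pandas 2.3.3 and scipy 1.17.1 were used, and the computations were tested on simulated data. Alternatives covered pseudocounts, scaling, cell choice, batches and left-out cells.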

Additional observations from a re-analysis of the deposited data

Results flagged for a closer look

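Among the 10 control CM-like cells of batch 2, 4 of 9 values looked at had a cell that stood apart from the rest by Dixon's ratio at the 95% level, which chance alone would flag in about 1 of 20 groups. Myl3 was lowest, at 11.2 on the log2(TPM + 1) scale, in a cell that also carried 35446 TPM of erythroid markers. Myl4 was highest, at 14.1, and the log2 ratio of Myl4 over Myl3 highest, at 1.67, in a cell with 3805 detected genes. The log2 ratio of Myl7 over Myl2 was highest, at 4.13, in another cell. The other control groups and the cKO groups hold more than 10 cells and were not examined this way. Outside the comparison, the 1 cKO cell of the unnamed cluster had Myl3 at 11.4, above the highest control cell of that cluster, at 10.7.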

How the results depend on the processing

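No paired analysis was possible because the labels give no embryo or litter and the cell numbers pair no cells. Of 253 recomputed values for 17 results, 229 stayed within the limit set for each, and the cause of the other changes was not tested. For a difference, the sign had to hold and the limit was the SD of the 2 within-batch values, or 0.25 log2 units if larger. This limit was wide where the batches disagreed, and single-batch values could hardly exceed it. Under it, the fall of Myl7 over Myl2 from 4.19 to 1.65 as log2 ratio of mean TPM counted as kept. The count of 229 is therefore no measure of robustness. Over all cells of the table, where control cells are mostly not CM-like, the difference of Myl2 became 0.70 and that of Myl3 2.08 (both reversed), and Myl4 gave 3.92, Myl7 4.03, Myh6 3.97 and Myh7 4.16. Myh6 reversed to -0.72 in batch 1 alone, and the Myh6 over Myh7 ratio to 1.15 in batch 2 alone. As log2 ratio of mean TPM, Myl2 gave -1.05, Myl3 -1.42, Myh7 0.74, Myh6 0.45, Myl7 over Myl2 1.65 and Myl4 over Myl3 1.62. With 4 clusters, which joined the unnamed cells to the CM-like cells, Myh7 gave 1.23 and Myl4 1.05. With Tnnt2 and Actc1 both at 100 TPM or more in place of clusters, they gave 1.56 and 1.11. These 2 choices gave -1.496 and -1.20 for Myl3, 1.37 and 1.31 for Myl7, and 1.01 and 1.48 for Myh6. In batch 2 alone, Myl7 exceeded Myl2 in 100% of cKO cells, Myl4 exceeded Myl3 in 80% of control cells and Myh6 exceeded Myh7 in 52.9% of cKO cells, against 17.6% in batch 1. Genes called higher and lower numbered 687 and 928 with a pseudocount of 0.1, 128 and 118 with 10, and 67 and 44 at a limit of 2 log2 units, where Myl2 alone of the chains was called. Under the other settings for that count, Myl2 and Myl3 were both called. Leaving out 1 cell at a time gave -3.61 to -3.39 for Myl2, -2.53 to -2.29 for Myl3 and 4.04 to 4.30 for Myl7 over Myl2. Centring each cell on its median shifted the difference of every chain by -0.20, to 0.47 for Myl7 and 0.02 for Myl4. Cells with erythroid transcripts were left out as an alternative added after seeing the data, and no difference changed its sign. Depth per cell is unknown, so a listed 0 does not show absence.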
